A study of Mus musculus with 16 samples.

Results

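The latent TGF-beta binding proteins and their partners in elastic fibers were followed in mouse heart ventricles after transverse aortic constriction (TAC), with or without THZ1, a covalent inhibitor of the transcription kinases CDK7, CDK12 and CDK13. The set held 10 genes of the 22372 in the deposited table: Ltbp1, Ltbp2, Ltbp3, Ltbp4, Fbn1, Eln, Fbln1, Fbln2, Fbln5 and Adamtsl2. They were chosen by gene family with the measured log2 fold changes of these libraries in view, in which Ltbp2 stood among the genes most raised by TAC and Adamtsl2 among those with the clearest combined effect of TAC and drug. For this reason the values under TAC, under THZ1 in constricted hearts and for the combination of both are given below as a description, with no p for the 10 genes. All 10 passed the filter on low values.

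Poly(A) RNA of ventricle pieces was sequenced from C57BL/6J mice that were 10 to 12 weeks old when the experiment began, with 4 libraries in each of 4 groups. Sham-Veh mice had the operation without the constriction and received vehicle, and TAC-Veh mice had the aortic arch constricted and received vehicle. Sham-THZ1 and TAC-THZ1 mice had the same operations and received intraperitoneal THZ1 at 10 mg/kg, given 2 times daily between postoperative days 1 and 60. The labels name no transgene or engineered allele for any group. The study's methods have vehicle, a DMSO and dextrose solution, injected every day over the same period, and give THZ1 as a daily injection of the sum of the labelled doses. The ventricle is a mixture of cell types, so in these bulk libraries fewer cells of a type and less RNA per cell cannot be told apart. A level below is a normalized count, that is the number of reads of a gene divided by the size factor of its library. A log2 fold change is a difference between group means on the log2(normalized count + 1) scale, with its standard error (SE), and a gene is called where its Benjamini-Hochberg adjusted p from limma, over the 13331 genes tested, was under 0.05.

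Libraries held 21431703 to 35812869 counted reads, with size factors of 0.749 to 1.40 and 33.2% to 44.7% of reads from mitochondrial genes. Cardiomyocyte markers summed to at least 586236 normalized counts in every library. Among the TAC-Veh libraries, replicate 3 had the lowest value for 9 of the 10 genes, the exception being Fbln1, and replicate 2 had the highest for 5. Without replicate 3 the same number of genes was called in TAC-Veh against Sham-Veh (9) and in TAC-THZ1 against TAC-Veh (8).

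TGF-beta is secreted in a latent form, folded with its own propeptide, and LTBP1, LTBP3 and LTBP4 bind that complex covalently and fix it to the matrix. LTBP2 does not bind latent TGF-beta, and is known as a microfibril protein that competes with LTBP1 for fibrillin-1. Fibrillin-1, the product of Fbn1, builds the microfibrils on which the LTBPs sit and onto which elastin is laid down. Fibulin-5 and LTBP4 guide elastin onto these microfibrils, fibulin-2 and fibulin-1 are elastic fiber and basement membrane proteins, and ADAMTSL2 is a secreted microfibril-binding glycoprotein. In the heart these proteins come mainly from fibroblasts and vessel walls, and microfibrils serve as a store of latent TGF-beta, a cytokine that activates fibroblasts.

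The start regions of these genes were read from RefSeq (mouse build GRCm38.p6), which matched 9 of the 10 genes with 14 start sites; Eln was not matched. They are shown because 8 of the genes were called higher under TAC. Shown are the 250 bases before the start of Ltbp2 and Adamtsl2, the members with the largest log2 fold changes under TAC, of Fbn1, which encodes the microfibril core, and of the upstream start of Ltbp1, the member called lower. The choice was made after the values were seen. Each runs 5′ to 3′ on the strand of the gene, ending at the base before the start. Capitals mark, on either strand, CAGAC (a Smad-binding element), TATAAA (the TATA box), GGGCGG (the Sp1 box) and CCAAT (the CCAAT box).
Ltbp2, chr12:84876492-84876741, minus strand: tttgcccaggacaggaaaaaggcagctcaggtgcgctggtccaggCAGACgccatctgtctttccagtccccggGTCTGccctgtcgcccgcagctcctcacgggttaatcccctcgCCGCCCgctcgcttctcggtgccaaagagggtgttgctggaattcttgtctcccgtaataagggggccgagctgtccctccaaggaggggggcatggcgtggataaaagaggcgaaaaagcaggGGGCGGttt
Adamtsl2, chr2:27079129-27079378, plus strand: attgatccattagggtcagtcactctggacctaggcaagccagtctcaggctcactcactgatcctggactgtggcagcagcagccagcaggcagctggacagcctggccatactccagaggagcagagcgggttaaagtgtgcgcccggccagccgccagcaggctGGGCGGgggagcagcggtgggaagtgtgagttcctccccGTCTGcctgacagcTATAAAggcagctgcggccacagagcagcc
Fbn1, chr2:125506439-125506688, minus strand: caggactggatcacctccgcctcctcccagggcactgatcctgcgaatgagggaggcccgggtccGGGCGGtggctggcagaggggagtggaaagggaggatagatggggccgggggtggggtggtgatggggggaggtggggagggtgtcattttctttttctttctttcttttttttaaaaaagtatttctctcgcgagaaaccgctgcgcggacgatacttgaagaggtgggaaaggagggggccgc
Ltbp1, chr17:75005279-75005528, plus strand: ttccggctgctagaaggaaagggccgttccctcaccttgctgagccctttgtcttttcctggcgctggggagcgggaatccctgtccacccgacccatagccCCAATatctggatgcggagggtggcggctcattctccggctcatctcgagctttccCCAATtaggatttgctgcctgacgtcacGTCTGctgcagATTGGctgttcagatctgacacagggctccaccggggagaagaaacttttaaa

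Ltbp2 held 2 copies of CAGAC and 2 of GGGCGG, and Adamtsl2 was the only member with TATAAA. Over the members, CAGAC lay in 8 of 14 starts, beside 42.2% of all 32851 RefSeq starts. GGGCGG lay in 9 of 14, beside 32.7% of all starts, and CCAAT in 3 of 14, beside 33.8%. Windows of some starts of Fbln1 and of Ltbp4 overlap, so some matches are counted more than once. By gene, CAGAC lay in 6, GGGCGG in 7 and CCAAT in 3 of the 9 members matched. TATAAA is found in 12.4% of all starts. TGANTCA, the AP-1 site with any base in the middle, lay in none of the members' 14 starts and in 6.75% of all, and GGAATG, the TEAD element, in none and in 12.6% of all. Matches were counted on both strands and none of these motifs contains another. The 3 starts of Ltbp4 were rich in G and C, at 79.2%, 79.2% and 64.4%, beside a median of 52.4% over all starts, and held no CAGAC. These are matches of letters within 250 bases and not sites of binding.

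Under vehicle, TAC was accompanied by higher levels of most of these genes and a lower level of Ltbp1. Ltbp2 was 33.7-fold higher, Adamtsl2 6.78-fold, Eln 3.06-fold, Fbn1 2.95-fold, Fbln2 2.52-fold and Fbln5 2.29-fold. Ltbp3 was 1.78-fold higher and Ltbp4 1.39-fold, and Ltbp1 was 1.53-fold lower. At an adjusted p under 0.05, 8 of 10 were called higher, beside 21.4% of all tested genes, and 1 was called lower, beside 23.6%. With a log2 fold change of at least 1 in addition, 6 were called higher, beside 4.64% of all genes. Nothing is read from these counts, because TAC responses were known when the genes were chosen. The median log2 fold change was 1.26 over the 10 genes and -0.00 over all tested genes.

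**Figure D1:**
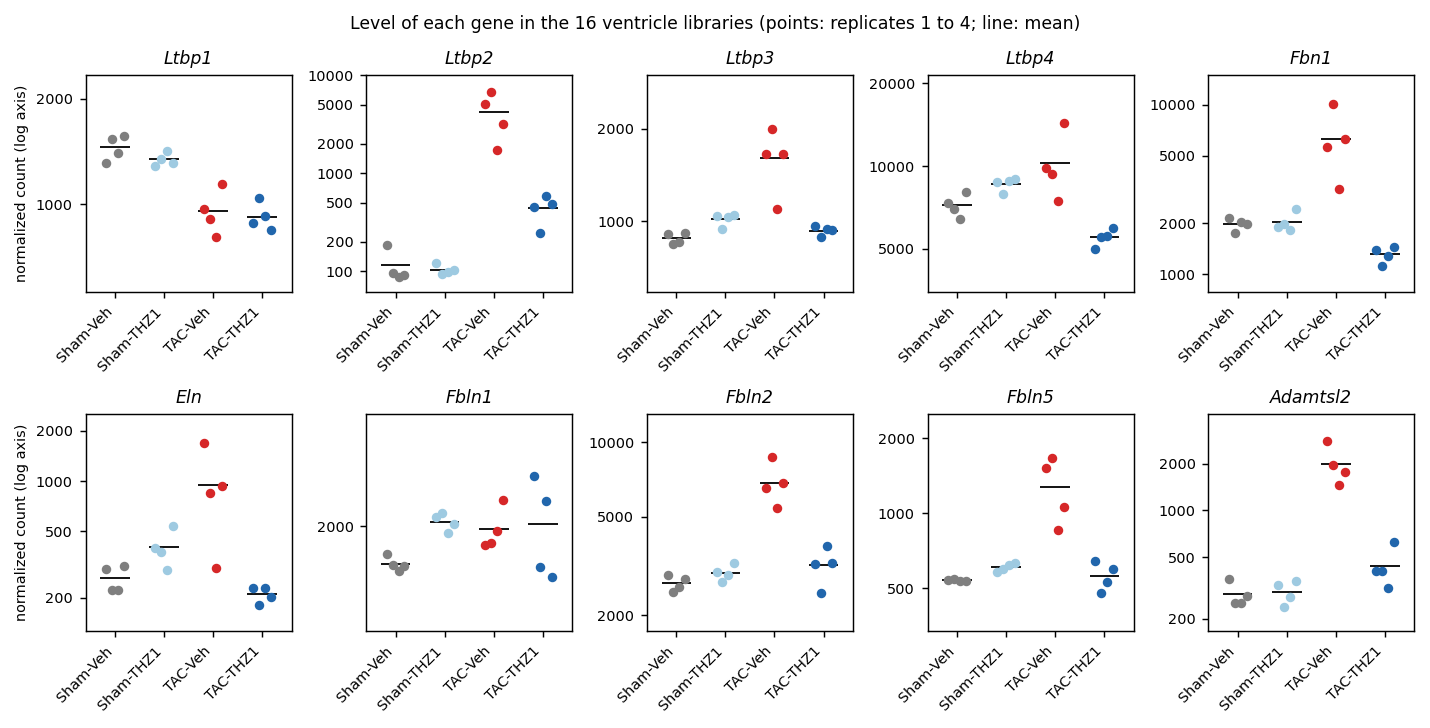
Normalized count (log axis, a scale of its own for each gene) of the 10 genes in the 16 libraries, with 1 point per library in the order of replicates 1 to 4 and a line at the group mean. Ltbp2 lies at 87.5 to 187 in the sham groups, at 1709.9 to 6792 in TAC-Veh and at 246 to 581 in TAC-THZ1, whereas Ltbp1 is low in both constricted groups.

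On the log2 scale Ltbp2 had the widest range of the 4 Ltbp genes. In Sham-Veh its normalized counts were 187, 96.3, 87.5 and 90.8 in replicates 1 to 4, and in Sham-THZ1 they were 120.5, 94.2, 97.5 and 101. In TAC-Veh they were 5151, 6792, 1709.9 and 3211, and in TAC-THZ1 they were 447, 246, 581 and 489.9. The TAC-Veh and TAC-THZ1 libraries did not overlap with each other, nor either of them with the sham libraries on the same treatment. The log2 fold change under TAC was 5.08 (SE 0.35, 95% interval 4.33 to 5.82), and 5.45 without TAC-Veh replicate 3. With THZ1 in constricted hearts Ltbp2 was 8.84-fold lower (log2 fold change -3.14, SE 0.35).

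Ltbp1, the founding member and a carrier of latent TGF-beta, went the other way. Its normalized counts were 1313, 1533, 1398 and 1560.2 in Sham-Veh and 1288, 1348, 1419.8 and 1313 in Sham-THZ1. They were 971, 905, 804 and 1142 in TAC-Veh and 882, 1040.1, 925 and 843 in TAC-THZ1. All 8 constricted libraries lay below all sham libraries. The log2 fold change was -0.61 (SE 0.09) under TAC. THZ1 in constricted hearts left a log2 fold change of -0.04 with a 95% interval of -0.24 to 0.16, and the libraries of both constricted groups overlapped.

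Ltbp3 and Ltbp4, the other carriers of latent TGF-beta, were higher in TAC-Veh by less. Ltbp3 had 905, 841, 852 and 917 normalized counts in Sham-Veh, 1659, 2002, 1093 and 1658 in TAC-Veh, and 963, 887, 943 and 933 in TAC-THZ1. These groups did not overlap between Sham-Veh and TAC-Veh, and the log2 fold change was 0.83 (SE 0.12) under TAC and -0.75 (SE 0.12) with THZ1 in constricted hearts. Ltbp4 had 7370.2, 6969, 6436 and 8024 normalized counts in Sham-Veh, 9879, 9347, 7501 and 14372 in TAC-Veh, and 4985, 5540.3, 5549.6 and 5970.4 in TAC-THZ1. Its Sham-Veh and TAC-Veh libraries overlapped, since TAC-Veh replicate 3 lay below 1 sham library. Every TAC-THZ1 library lay below every library of the other 3 groups, and the log2 fold change with THZ1 was -0.86 (SE 0.14). In TAC-Veh against Sham-Veh it was 0.48 (SE 0.14), and that call was lost when those 2 groups were fitted alone.

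Counted per kilobase of annotated exon, so that genes of different length can be set side by side, Ltbp4 led the 4 Ltbp genes in every library. It made up 63.9% ± 9.46 (SD, n = 4) of their summed level in TAC-Veh and 72.7% ± 1.90 in TAC-THZ1, compared with 77.7% ± 0.997 in Sham-Veh and 80.0% ± 0.446 in Sham-THZ1. Ltbp2 made up 0.982% ± 0.391 in Sham-Veh and 0.757% ± 0.0793 in Sham-THZ1. In TAC-Veh its share was 20.0% ± 8.74, with libraries at 24.5%, 30.2%, 12.6% and 12.9%, and in TAC-THZ1 it was 4.58% ± 1.41. The share of Ltbp1 was lowest in TAC-Veh at 3.67% ± 0.621, compared with 7.39% ± 0.856 in TAC-THZ1, 7.55% ± 0.501 in Sham-THZ1 and 9.50% ± 0.845 in Sham-Veh. The Ltbp3 share was 15.3% ± 1.11 in TAC-THZ1 and had group means of 11.7% to 12.4% in the other groups. The summed level itself was 2502 ± 598 per kilobase in TAC-Veh and 1172 ± 63.1 in TAC-THZ1, compared with 1433 ± 115.0 in Sham-Veh and 1668 ± 82.9 in Sham-THZ1.

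**Figure D2:**
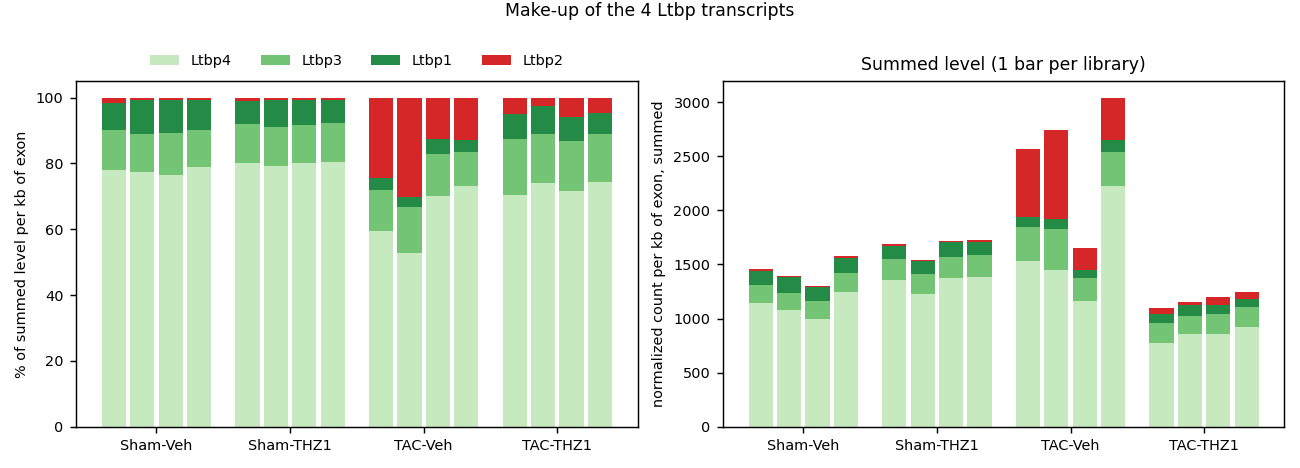
Make-up of the Ltbp transcripts, with 1 bar per library in the order of replicates 1 to 4: left, each gene as % of the summed normalized count per kilobase of exon; right, that sum itself. Ltbp2 takes 12.6% to 30.2% in the TAC-Veh libraries and 2.60% to 5.92% in the TAC-THZ1 libraries, and Ltbp4 is the largest part of every bar.

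Fbn1, the microfibril core, had 2155, 1746, 2022 and 1985 normalized counts in Sham-Veh and 1900.0, 1971, 1828 and 2426 in Sham-THZ1. In TAC-Veh it had 5650.4, 10059.7, 3199 and 6302, and in TAC-THZ1 it had 1380.4, 1122, 1279 and 1448. Every TAC-Veh library lay above every other library, and every TAC-THZ1 library lay below every library of either sham group. The log2 fold change was 1.56 (SE 0.22) under TAC and -2.16 (SE 0.22) with THZ1 in constricted hearts.

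Adamtsl2 is the member of the ADAMTS-like family whose loss in people gives geleophysic dysplasia, a disease that also arises from changes in fibrillin-1 or LTBP3. It had 364, 255, 254 and 280.3 normalized counts in Sham-Veh, 2792, 1958, 1462 and 1762 in TAC-Veh, and 406, 407, 318 and 627 in TAC-THZ1. TAC-Veh did not overlap with any other group. The log2 fold change was 2.76 (SE 0.21) under TAC and -2.18 (SE 0.21) with THZ1 in constricted hearts.

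Eln, the gene for the elastic polymer itself, was the most uneven member in TAC-Veh, with a coefficient of variation of 60.4%. Its normalized counts were 296, 222, 223 and 310.2 in Sham-Veh and 397, 376, 292 and 540.0 in Sham-THZ1. They were 1682, 851, 300.2 and 932 in TAC-Veh and 230.4, 181, 228 and 204 in TAC-THZ1. TAC-Veh replicate 3 fell within the Sham-Veh range, whereas the other three TAC-Veh libraries lay above every sham library. The log2 fold change under TAC was 1.61 (SE 0.35), and 2.08 without that replicate. All TAC-THZ1 libraries lay below all TAC-Veh libraries, with a log2 fold change of -1.92 (SE 0.35).

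Of the fibulins in this set of genes, Fbln2 and Fbln5 were higher in TAC-Veh and Fbln1 was not called. Fbln2 had 2894, 2467, 2591 and 2784 normalized counts in Sham-Veh, 6511, 8676, 5399 and 6812 in TAC-Veh, and 3213, 2458, 3798 and 3248 in TAC-THZ1. Its log2 fold change was 1.33 (SE 0.13) under TAC and -1.10 (SE 0.13) with THZ1. Fbln5, which binds elastin and the cross-linking enzyme LOXL1, had 539, 541, 534 and 534 in Sham-Veh, 1519, 1667, 854 and 1062 in TAC-Veh, and 641, 479.9, 529 and 597 in TAC-THZ1. Its log2 fold change was 1.20 (SE 0.15) under TAC and -1.14 (SE 0.15) with THZ1. For both genes TAC-Veh overlapped with neither Sham-Veh nor TAC-THZ1.

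Fbln1 had a pattern of its own. Its normalized counts were 1664, 1552, 1492 and 1544 in Sham-Veh and 2128, 2185, 1909.9 and 2027 in Sham-THZ1. In TAC-Veh they were 1772, 1788, 1939.8 and 2369.7, and in TAC-THZ1 they were 2790.2, 1529, 2362 and 1436. Sham-Veh did not overlap with Sham-THZ1 or with TAC-Veh, and the TAC-THZ1 libraries fell into a high and a low pair. The log2 fold change was 0.32 (95% interval -0.02 to 0.66) under TAC and -0.00 (95% interval -0.34 to 0.34) with THZ1 in constricted hearts. Its coefficient of variation in TAC-THZ1 was 32.3%, against 4.65% in Sham-Veh.

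With THZ1 in constricted hearts, 8 of 10 genes were called lower than in TAC-Veh, beside 14.2% of all tested genes, and none was called higher. At a log2 fold change of -0.89 or less in addition, 6 were called lower, beside 3.62% of all genes. The median log2 fold change was -1.12 over the 10 genes and 0.01 over all genes. This comparison and that of TAC-Veh with Sham-Veh share the TAC-Veh libraries; they are given side by side and not as independent measurements. For the interaction, which is the log2 fold change of THZ1 in constricted hearts minus that in sham hearts, 8 of 10 were called negative, beside 5.62% of all genes. The median interaction was -1.28 over the members and 0.02 over all genes. It was -3.06 (SE 0.50) for Ltbp2, -2.51 (SE 0.49) for Eln, -2.24 (SE 0.29) for Adamtsl2 and -2.19 (SE 0.32) for Fbn1, and 0.07 (SE 0.13) for Ltbp1. These counts too were known in part when the genes were chosen, and nothing is read from them.

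**Figure D3:**
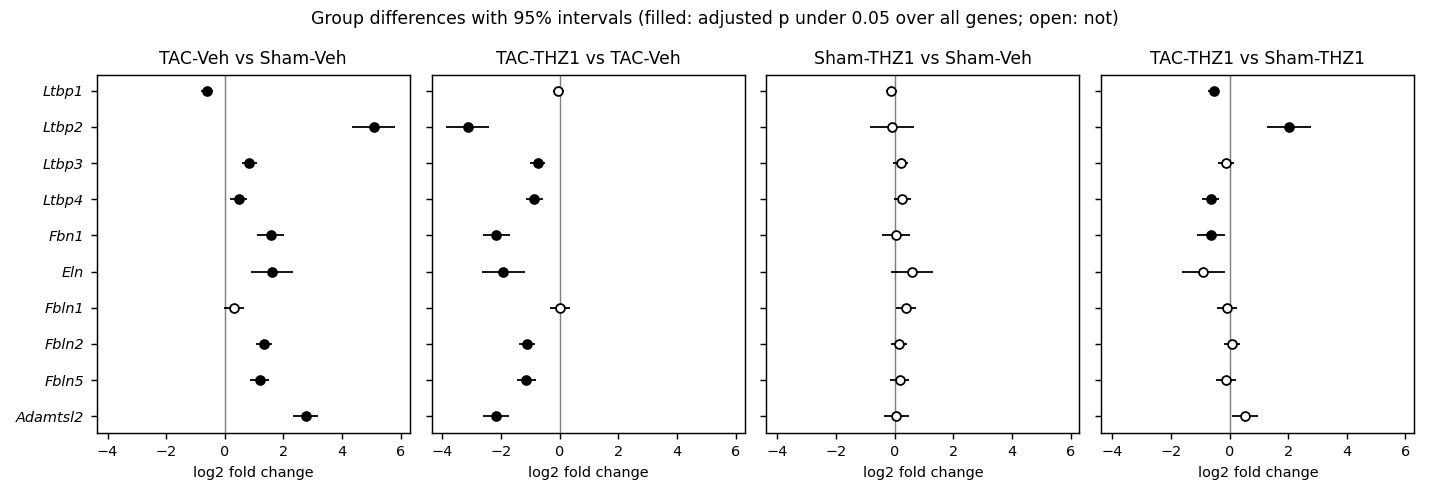
Log2 fold change of the 10 genes in 4 comparisons, with 95% intervals; filled points are called at an adjusted p under 0.05 over all genes. Ltbp2 lies at 5.08 in TAC-Veh against Sham-Veh, at -3.14 in TAC-THZ1 against TAC-Veh and still at 2.02 in TAC-THZ1 against Sham-THZ1, whereas every interval but that of Fbln1 holds 0 in sham hearts.

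THZ1 without constriction called none of the 10 genes in limma, beside 0.0675% of all tested genes in either direction. This log2 fold change is that of THZ1 in constricted hearts minus the interaction, so it too was not independent of the values in view. Only Fbln1 had an unadjusted p under 0.05, with a log2 difference of 0.40 (SE 0.16, 95% interval 0.06 to 0.74) and an adjusted p of 0.673. DESeq2 and edgeR on the recovered reads likewise called 0 of the 10. The intervals bound the changes that could have gone unseen, from -0.31 to 0.09 for Ltbp1, from -0.83 to 0.66 for Ltbp2, and from -0.14 to 1.32 for Eln. Sham-THZ1 and Sham-Veh libraries did not overlap for Ltbp3, Fbln1 and Fbln5, with Sham-THZ1 higher in each. The share of all genes without overlap between the sham groups was not counted, so nothing particular to the members is read from this. Ltbp3 had 1039, 942, 1029.8 and 1051 normalized counts in Sham-THZ1, and Fbln5 had 579.7, 598, 621 and 633. Ltbp4 had 8736, 7927, 8869.8 and 8955, of which 1 lay within the Sham-Veh range. When both sham groups were fitted alone, limma called Ltbp3 (adjusted p = 0.0379), Ltbp4 (adjusted p = 0.0286) and Fbln1 (adjusted p = 0.00103) higher with the drug. In that fit 465 genes of the table were called in all, against 9 with all libraries.

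Under the drug, TAC-THZ1 and Sham-THZ1 hearts still differed in some members. This comparison was not itself used to choose the genes. Its log2 fold change is, however, the sum of that under TAC and the interaction, and both were in view then. Its adjusted p are therefore a description and not a test. Ltbp2 was 4.06-fold higher in TAC-THZ1 (log2 fold change 2.02, SE 0.35, adjusted p = 0.00152, limma), with every TAC-THZ1 library above every Sham-THZ1 library. It was the 1 member called higher, beside 11.4% of all tested genes. Called lower were Ltbp1, Ltbp4 and Fbn1, 3 of 10 beside 12.8% of all genes. On the log2 scale Ltbp1 differed by -0.54 (SE 0.09, limma adjusted p = 0.0015), Ltbp4 by -0.65 (SE 0.14, adjusted p = 0.00429) and Fbn1 by -0.63 (SE 0.22, adjusted p = 0.0491). The call of Fbn1 was lost under 5 of the 11 alternative settings and under leaving out any 1 of 13 libraries, with adjusted p up to 0.134, although all its TAC-THZ1 libraries lay below all its Sham-THZ1 libraries.

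The other 6 members were not called in that comparison. Eln differed by -0.90 on the log2 scale (SE 0.35, limma adjusted p = 0.0674), and its libraries did not overlap. Adamtsl2 differed by 0.52 (SE 0.21, adjusted p = 0.0731). For Ltbp3, Fbln1, Fbln2 and Fbln5 the adjusted p lay between 0.493 and 0.757, with 95% intervals of -0.38 to 0.14, -0.42 to 0.26, -0.19 to 0.36 and -0.45 to 0.20 for their log2 fold changes. The median over the 10 genes was -0.12, and 0.00 over all genes.

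Ranked by normalized count per kilobase of exon, Sham-Veh hearts held the members in the order Ltbp4 (1114 ± 103.6), Fbln2 (457 ± 32.6), Fbln1 (358 ± 16.6), Ltbp3 (169 ± 7.26), Fbn1 (163 ± 14.1), Ltbp1 (136 ± 10.9), Eln (102 ± 18.2), Fbln5 (92.1 ± 0.624), Adamtsl2 (36.1 ± 6.49) and Ltbp2 (14.1 ± 5.83). Ltbp3, Fbn1 and Ltbp1 overlapped with their neighbours in this order, and so did Eln and Fbln5. In TAC-Veh the order of the means became Ltbp4 (1590 ± 451), Fbln2 (1166 ± 232), Fbn1 (519.7 ± 234), Ltbp2 (515 ± 271), Fbln1 (450.4 ± 63.8), Eln (364 ± 220.0), Ltbp3 (308 ± 72.5), Adamtsl2 (249 ± 71.3), Fbln5 (219 ± 65.4) and Ltbp1 (89.4 ± 13.3). There Ltbp2 had moved from last place into the group of Fbn1 and Fbln1, from which its libraries could not be separated. In TAC-THZ1, Ltbp4 (853 ± 62.5), Fbln2 (541 ± 93.7) and Fbln1 (465 ± 150.3) led again, and Adamtsl2 (55.0 ± 16.5) and Ltbp2 (53.8 ± 17.3) were last. The place of Eln depends on its gene model, which is 1 transcript of 2583 bases with 3 annotated bases outside the coding sequence, so its level per kilobase is per coding length. Other places depend on the length chosen. Per kilobase of the longest transcript, Ltbp1 had 218 in Sham-Veh, above Ltbp3 (169) and Fbn1 (165). In TAC-Veh it remained last at 143, while Ltbp2 (623) came before Fbln1 (538) and Fbn1 (526), and Adamtsl2 (335) before Ltbp3 (309). The genes named as leading and last in TAC-THZ1 kept their places.

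In the annotation of the build used for counting (mm9), Ltbp1 spans chr17:75404908-75791852, Ltbp2 chr12:86124162-86217482, Ltbp3 chr19:5740904-5758532 and Ltbp4 chr7:28090155-28122711. Fbn1 and Adamtsl2 both lie on chromosome 2, at chr2:125126330-125333729 and chr2:26934899-26964501, and Eln lies at chr5:135179651-135223111. Fbln5 shares chromosome 12 with Ltbp2, at chr12:102984775-103057265, Fbln1 lies at chr15:85036379-85116965 and Fbln2 at chr6:91162449-91222534. Gene lengths ran from 17.6 kb for Ltbp3 to 387 kb for Ltbp1. Ltbp2 and Fbn1 overlap genes on the opposite strand, and the counting used strand. Gm9913, opposite Fbn1, had group means of 2.41 to 4.93 normalized counts. D030025P21Rik, opposite Ltbp2, had 0.422 in Sham-Veh and 9.02 in TAC-Veh. Ltbp1 overlaps the pseudogene Gm6276 on its own strand, and reads shared with it could not be separated here.

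Partners of the members in elastic fibers, 17 tested of 18 listed, were next examined. This list and those below were chosen with earlier results of these data known. Genes were named from them largely by their log2 fold changes, so the counts and adjusted p are a description and not a test. In TAC-Veh against Sham-Veh 11 were called higher and 3 lower, beside 21.4% and 23.6% of all tested genes, with a median log2 fold change of 1.13. Lox, which cross-links elastin and collagen, was higher by 3.82 on the log2 scale (SE 0.45, adjusted p = 7.7e-06, limma), with 102 to 129.8 normalized counts in Sham-Veh and 573 to 4471 in TAC-Veh. The microfibril proteins Mfap4 (3.47, SE 0.24, adjusted p = 6.4e-08) and Mfap5 (3.09, SE 0.27, adjusted p = 5.7e-07) were also higher, as was Loxl3 (2.70, SE 0.31, adjusted p = 6.1e-06). Lower were Efemp1, of the fibulin family (-1.98, SE 0.28, adjusted p = 3.5e-05), Emilin2 (-1.27, SE 0.11, adjusted p = 3.8e-07) and Hmcn2 (-1.10, SE 0.36, adjusted p = 0.0194). Hmcn2 was uneven, with 314 to 1724 normalized counts in TAC-Veh, a range that spans the 1206 to 1499 of Sham-Veh. Efemp2, which encodes a fibulin family protein that elastin assembly requires, was higher by 0.94 (SE 0.16). With THZ1 in constricted hearts 11 partners were called lower, beside 14.2% of all tested genes, and 2 higher, beside 2019 of 13331. The 2 called higher were Efemp1 (1.20, SE 0.28, adjusted p = 0.00461) and Emilin2 (0.68, SE 0.11, adjusted p = 0.000375). Of the ADAMTS-like genes and microfibril-binding ADAMTS proteases, the family of Adamtsl2, 2 of 8 tested were called higher and 2 lower under TAC. These counts lie near the shares over all tested genes. Adamtsl4 had -0.69 (SE 0.10, adjusted p = 3e-05) against 2.76 for Adamtsl2.

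**Figure D4:**
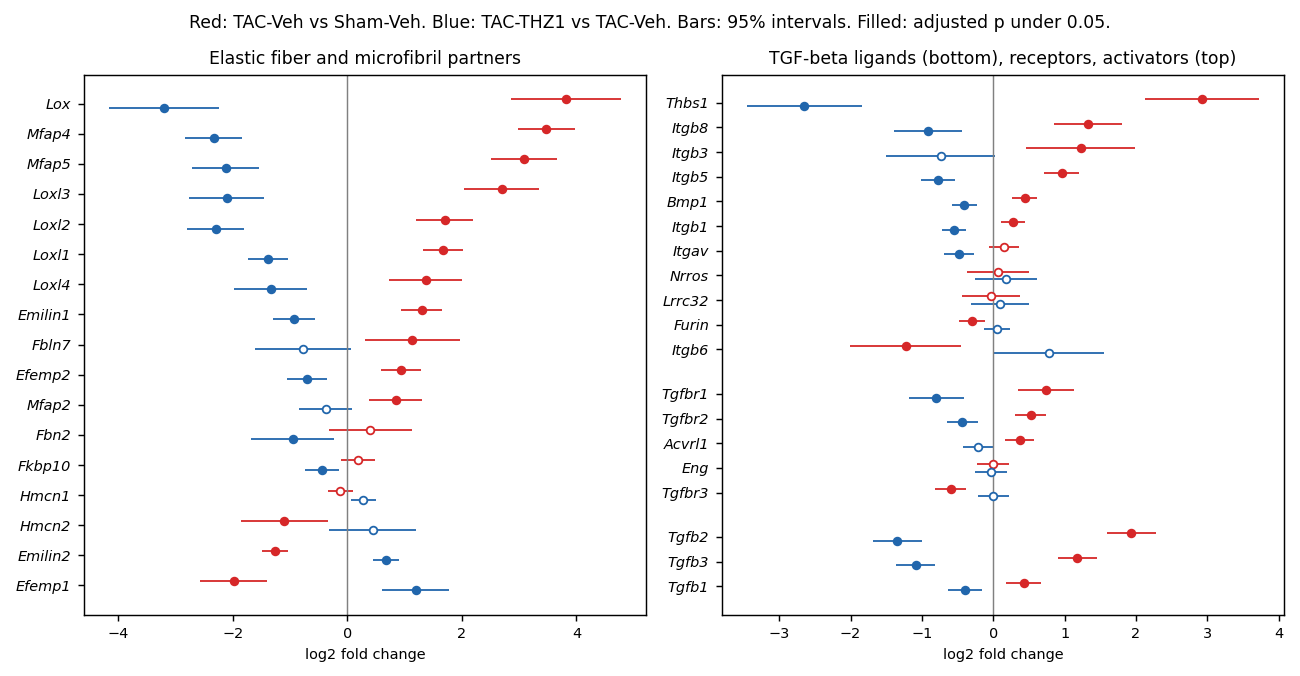
Log2 fold change with 95% intervals of the elastic fiber partners (left) and of TGF-beta ligands, receptors and activators (right), in TAC-Veh against Sham-Veh (red) and TAC-THZ1 against TAC-Veh (blue); filled points are called. Lox lies at 3.82 and -3.20 and Tgfb2 at 1.94 and -1.35, while Efemp1 lies at -1.98 and 1.20.

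The cytokines that the LTBPs carry were called in both comparisons. Under TAC, Tgfb2 (log2 fold change 1.94, SE 0.16), Tgfb3 (1.18, SE 0.13) and Tgfb1 (0.42, SE 0.11) were 3 of 3 called higher, and with THZ1 in constricted hearts all 3 were called lower, at -1.35, -1.09 and -0.40. Per kilobase, the summed level of Ltbp1, Ltbp3 and Ltbp4 was 3.96 ± 0.247 times that of the 3 ligands in Sham-Veh and 4.41 ± 0.202 times in Sham-THZ1. It was 2.69 ± 0.761 times in TAC-Veh and 2.81 ± 0.298 times in TAC-THZ1, where libraries ranged from 1.90 to 3.73 and from 2.56 to 3.16. This is a ratio of RNA levels in which Ltbp4 made up most of the Ltbp sum. Which LTBP binds which ligand, and how well, was not measured, so no carrier capacity is read from it. Of the receptors, 3 of 5 were called higher under TAC, and Tgfbr3, a co-receptor that holds TGF-beta at the cell surface, was called lower (-0.60, SE 0.10). Of 11 activators and anchors of latent TGF-beta, 6 were called higher and 2 lower. Thbs1, a secreted activator, had 2.92 (SE 0.38) and the integrin subunit Itgb8 had 1.33 (SE 0.23), against -1.23 (SE 0.37) for Itgb6. Of 9 signal transducers 2 were called higher and 1 lower. Over all tested genes, 21.4% were called higher and 23.6% lower under TAC, and 14.2% were called lower with THZ1 in constricted hearts.

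Known targets of TGF-beta, 10 in number, were all called higher under TAC, beside 21.4% of all tested genes, with a median log2 fold change of 1.47. With THZ1 in constricted hearts 9 of 10 were called lower, beside 14.2% of all tested genes. Postn (4.65, SE 0.34) and Cilp (4.58, SE 0.30), both secreted matrix proteins, had the largest log2 fold changes, followed by Ctgf at 2.97 (SE 0.34). Postn and Cilp also belong to the list of activated fibroblast markers, and Col1a1 and Col1a2 to that of fibroblast markers. Of 13 elastin-degrading proteases and their inhibitors, 10 were called higher and none lower under TAC. With THZ1 in constricted hearts 9 were called lower and 1 higher, the latter Mmp9 (2.74, SE 0.49, adjusted p = 0.000943), which had a mean of 12.3 normalized counts in TAC-Veh and 111 in TAC-THZ1.

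Markers of cell types moved beside these results. The counts of markers called under TAC stand beside 21.4% called higher and 23.6% called lower over all tested genes. Of 7 activated fibroblast markers 6 were called higher in TAC-Veh, and their summed level ranged from 31947 to 99043 normalized counts in TAC-Veh and from 4569 to 11705 in TAC-THZ1, compared with 3514 to 4754 in Sham-Veh and 3807 to 4691 in Sham-THZ1. Cthrc1 was at 0 in 1 library, and Acta2 was the 1 not called. General fibroblast markers, with 5 of 8 called higher in TAC-Veh, summed to 78916 to 89059 in TAC-Veh and 58582 to 81615 in TAC-THZ1, compared with 53533 to 59991 in Sham-Veh and 56787 to 60515 in Sham-THZ1. Of the 3 not called, Pdgfra and Tcf21 were named after their values were seen, with log2 fold changes of 0.25 (SE 0.11) and 0.38 (SE 0.17), both positive. Gsn, with means of 33036 in Sham-Veh and 34063 in TAC-Veh, held a large part of the summed general fibroblast level. Smooth muscle markers, which mark another known source of elastin, summed to 5394 to 6635 in TAC-Veh and 5495 to 7374 in TAC-THZ1, compared with 7341 to 9333 in Sham-Veh and 8578 to 9587 in Sham-THZ1, with 1 of 7 called higher and 3 lower under TAC. Epicardial and mesothelial markers summed to at most 356 in any library, with 2 of 4 tested called higher under TAC. Under TAC, 4 of 6 macrophage markers were called higher, 4 of 5 pericyte markers and 4 of 6 cardiomyocyte markers lower, and of 6 endothelial markers 1 was called higher and 2 lower. The part of these cell types in the values of the 10 genes was not tested.

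Of 10307 genes whose mean reached 100 normalized counts, those whose profile over the 16 libraries lay closest to each member were named, by the root mean square difference of log2 values centred on each gene's mean. For Ltbp2 these were Thbs4 (0.25) and Cilp (0.30), for Fbn1 Col3a1 (0.18) and Loxl2 (0.20), and for Adamtsl2 Serpinf1 (0.31) and Itgbl1 (0.31). Ltbp1 lay closest to Tgfbr3 (0.09) and Gigyf1 (0.10). Ltbp3 lay closest to Arhgef40 (0.09) and Anxa5 (0.12), and Ltbp4 to Dchs1 (0.17) and Mtap1a (0.17). For the fibulins the nearest were Stab1 (0.17) and Abi3 (0.18) to Fbln1, Fam198b (0.11) and Tgfb3 (0.12) to Fbln2, and Lhfp (0.12) and Gab2 (0.13) to Fbln5. Eln had the least close neighbours, A430110N23Rik (0.48) and Mmp2 (0.48). These distances describe likeness over the same 16 libraries, which share the group differences.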

How the data were processed

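Ventricle RNA was sequenced from 16 stranded poly(A) libraries (4 per group). Per the methods and the submitters' processing notes, the authors aligned reads to mm9 with TopHat2 2.1.1, counted reads over the GENCODE mm9 genes by strand (htseq-count, reverse), and divided them by DESeq2 size factors in a run of all mouse libraries. The deposited values are these normalized counts, a signal of whole reads divided by a size factor. Dividing by the smallest step of each library gave whole reads for 100% of values (tolerance 0.001), and thus the depths stated above. No replicates of a group agreed within sampling noise (chi-square per degree of freedom 2.97 to 93.5), so none was treated as a repeat deposit of another. The methods describe measurements as from distinct samples, and the labels do not tie libraries to animals, so p-values measure the spread between libraries.

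The 13331 genes that reached 10 normalized counts in 4 or more libraries were tested on log2(normalized count + 1), which understates changes of low genes, with limma 3.58.1 (R 4.3.3; empirical Bayes with trend, 1 mean per group, all 16 libraries, Benjamini-Hochberg adjustment within each of 5 contrasts). The fit was tested on simulated data. edgeR 4.0.16 and DESeq2 1.42.0 were run on the recovered reads as alternatives, beside other pseudocounts (0.5 and 5), filters, scalings, weights, a replicate block and leaving out each library. The 10 genes and all lists were chosen with earlier results of these data known. From each list, up to 4 called genes with the largest log2 fold changes were named, as were up to 2 genes nearest each member in profile; Efemp1, Hmcn2, Efemp2, Acta2, Pdgfra and Tcf21 were named after their values were seen. Results for 2 other genes are not reported here. Thsd4 was left out because its symbol had 2 gene IDs. The log2 fold thresholds of 1 and -0.89 follow the methods of the study.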

Additional observations from a re-analysis of the deposited data

Results flagged for a closer look

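Ltbp2 in Sham-Veh replicate 1 stood apart from its group, with 187 normalized counts against 87.5 to 96.3 in the other libraries. Its gap to the nearest library was 0.912 of the group's range, above Dixon's 95% critical value for 4 samples. It was the 1 such library among 40 groups of values examined, where chance gives about 1 in 20. Without it, the log2 fold change of Ltbp2 in Sham-THZ1 against Sham-Veh went from -0.09 to 0.17.

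The interaction term of limma was called negative for 8 of the 10 genes, beside 5.62% of all tested genes. Combined effects of TAC and drug were in view when the genes were chosen, so these values are a description and not a test. As the log2 fold change of THZ1 in constricted hearts minus that in sham hearts, it was -3.06 for Ltbp2, -2.51 for Eln, -2.24 for Adamtsl2, -2.19 for Fbn1, -1.32 for Fbln5, -1.25 for Fbln2, -1.12 for Ltbp4 and -0.96 for Ltbp3.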

How the results depend on the processing

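The number of the 10 genes called was 9 in TAC-Veh against Sham-Veh, 8 in TAC-THZ1 against TAC-Veh and 8 for the interaction under each alternative that was run, including the replicate block, although under TAC Ltbp4 lost its call and Fbln1 gained one when the groups were fitted alone. In Sham-THZ1 against Sham-Veh it went from 0 to 3 with the groups fitted alone and to 1, Fbln1, with array weights (adjusted p = 0.0415). In TAC-THZ1 against Sham-THZ1 it went from 4 to between 3 and 6. Eln was called there with the groups alone (adjusted p = 0.00185), with weights (0.00494) and without TAC-Veh replicate 1 or 3 (0.0207 and 0.00657). Adamtsl2 was called there with weights (adjusted p = 0.00633), in DESeq2 (0.0411), without TAC-Veh replicate 1 (0.0357) and without TAC-THZ1 replicate 3 (0.0379). The causes were not tested.

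No sign of pairing by replicate number was seen, although a check on 4 libraries per group cannot exclude it. Deviations from group means correlated at -0.43 to 0.16 within the 24 pairs of the same number. Within 72 pairs of different number they correlated at -0.23 to 0.31. With the replicate block 5 genes were called in TAC-THZ1 against Sham-THZ1, where Eln (adjusted p = 0.0393) and Adamtsl2 (0.0321) were gained and Fbn1 (0.0519) was lost.

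Directions turned only for values that were not called. Fbln1 in TAC-THZ1 against TAC-Veh became 0.00083 with quantile normalization, 0.045 in DESeq2 and 0.043 in edgeR, and -0.17 to 0.14 when leaving out libraries. By leaving out libraries, Ltbp1 ranged from -0.12 to 0.046 there and from -0.013 to 0.16 for the interaction. In sham hearts Ltbp2 ranged from -0.19 to 0.17, Fbn1 from -0.054 to 0.082 and Adamtsl2 from -0.028 to 0.17, and in TAC-THZ1 against Sham-THZ1 Fbln1 ranged from -0.25 to 0.069 and Fbln2 from -0.0042 to 0.20. With the longest transcript as length, the Ltbp1 share became 4.93% in TAC-Veh, 9.86% in TAC-THZ1, 12.5% in Sham-Veh and 10.0% in Sham-THZ1, the Ltbp3 share 10.4%, 12.8%, 9.75% and 9.72% in the same order, and the Ltbp4 share in Sham-THZ1 79.5%.

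On the recovered reads edgeR called 6067 genes in TAC-Veh against Sham-Veh and DESeq2 6151, against 6003 in limma. Over all genes, calls in TAC-THZ1 against TAC-Veh went from 3918 to 1399 with the groups alone and 2412 with weights, and in Sham-THZ1 against Sham-Veh from 9 to 465, 513 (weights) and 32 (DESeq2), and to 3 to 15 when leaving out libraries. In TAC-THZ1 against Sham-THZ1 they went from 3220 to 5011 with weights and to as few as 1977 without TAC-THZ1 replicate 1, and for the interaction from 1336 to between 690 (without TAC-THZ1 replicate 2) and 2475 (without TAC-Veh replicate 3). With 4 libraries per group, small changes of the low or uneven genes, Eln and Ltbp2 above all, lie within the intervals given above.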
